A study of Mus musculus with 4 samples.

Results

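The 9 genes described here, Prph2, Rom1, Cdhr1, Rp1, Fscn2, Tulp1, Reep6, Aipl1 and Mpp4, encode outer segment, axoneme, trafficking and scaffold proteins of photoreceptors. They were taken by name from a table of 22690 genes, and each name matched 1 row. All 9 were at or above the level filter used for testing, a mean normalized count of 10, in both groups. The cells were 4N retinal cells, those with a doubled DNA content, sorted from C57BL/6 mice at postnatal day 2 after a short culture in serum-free medium. The group labelled Casz1 cKO (called cKO) consists of 2 GFP-positive libraries with a conditional knockout of Casz1, which encodes a zinc finger protein that binds DNA. The group labelled wild type (WT) consists of 2 GFP-negative libraries. The GFP fraction and the genotype therefore change together, and the Cre driver, the source of GFP and the number of animals per library are items not given in the sources used here. Every p-value below measures only the spread between these libraries, which may be technical. The 2 libraries of each group are called A and B after the tag in their column names, and a tag is shared by 1 cKO and 1 WT library.

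The outer segment is a modified cilium packed with membrane discs that hold the visual pigment. Its discs are shaped at their rims by tetraspanin proteins, its microtubule core is the axoneme, and its proteins are made in the inner segment and carried through the connecting cilium. In the mouse retina rods are born around birth, and outer segments are assembled only in the following weeks. Loss of function of several of these genes causes photoreceptor degeneration in humans or mice.

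Casz1 itself (ENSMUSG00000028977, chr4:148804429-148954889, plus strand, on GRCm38 like all coordinates here) had 8687 and 10772 normalized read counts in cKO libraries A and B, against 13162 and 11995 in WT libraries A and B. Its log2 fold change was −0.38 ± 0.19 (SE), not called by limma (adjusted p = 0.771). It was −0.22 without cKO library A. Reads over the whole gene do not measure the deletion. Reads in genes numbered 22326119 to 89473701 per library, and cKO library A was the shallowest. It correlated with the other 3 libraries at a Pearson r of 0.902 to 0.918 over genes, and those 3 correlated with each other at 0.988 to 0.993. Progenitor markers were present at high levels and 7 of 8 were higher in cKO, at a summed 443608 to 566146 in cKO and 391970 to 396223 in WT. All 12 microglial markers were lower in cKO, at a summed 1288 and 8721 in cKO libraries A and B and 19319 to 20677 in WT. Among them Aif1 was at 0 in cKO library A. Rod markers summed to 26161 to 27314 in cKO and 45308 to 53690 in WT. All 7 cone markers tested were lower too, and cone markers summed to 15132 to 20329 in cKO and 22574 to 31366 in WT. All 6 astrocyte markers were lower in cKO, 5 of them without overlap. These 6 summed to 4873 to 5519 in cKO and 7245 to 9561 in WT, at a median log2 fold change of −0.67. Among them S100b was at 0 in cKO library A. Of all genes tested, 53.3% were lower in cKO and 22.3% were lower without overlap, beside each list of lower markers here. Of 7 cell cycle markers 6 were higher in cKO, at a summed 167020 to 178649 in cKO and 141703 to 166537 in WT. The part that these other cell types and library A play in the values below was not tested. In such bulk samples, fewer photoreceptor-lineage cells and less RNA per cell cannot be told apart.

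All 9 genes had a lower mean in cKO than in WT, as did 53.3% of the 14480 genes tested by their log2 fold change. For 8 of them both cKO libraries lay below both WT libraries, a pattern held by 22.3% of genes tested, and Fscn2 was the exception. For 0 of the 9 did both cKO libraries lie above both WT libraries, as 17.2% of genes did. Means in cKO ranged from 44.4% of WT for Tulp1 to 89.6% for Fscn2. The median log2 fold change of the 9 was −0.77, beside −0.03 over all genes tested. None of the 9 was called by limma after Benjamini-Hochberg adjustment over all genes (adjusted p = 0.771 to 0.941), where 0% of genes were called in either direction. Before adjustment 7 had a limma p under 0.05, all of them lower in cKO. Over all genes tested 1.7% had such a p and were lower, and 1.89% had one in either direction. Rom1 and Fscn2 were the 2 without. DESeq2 called 0 of the 9, and 0.00572% of genes as lower or 0.0114% in either direction.

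**Figure D1:**
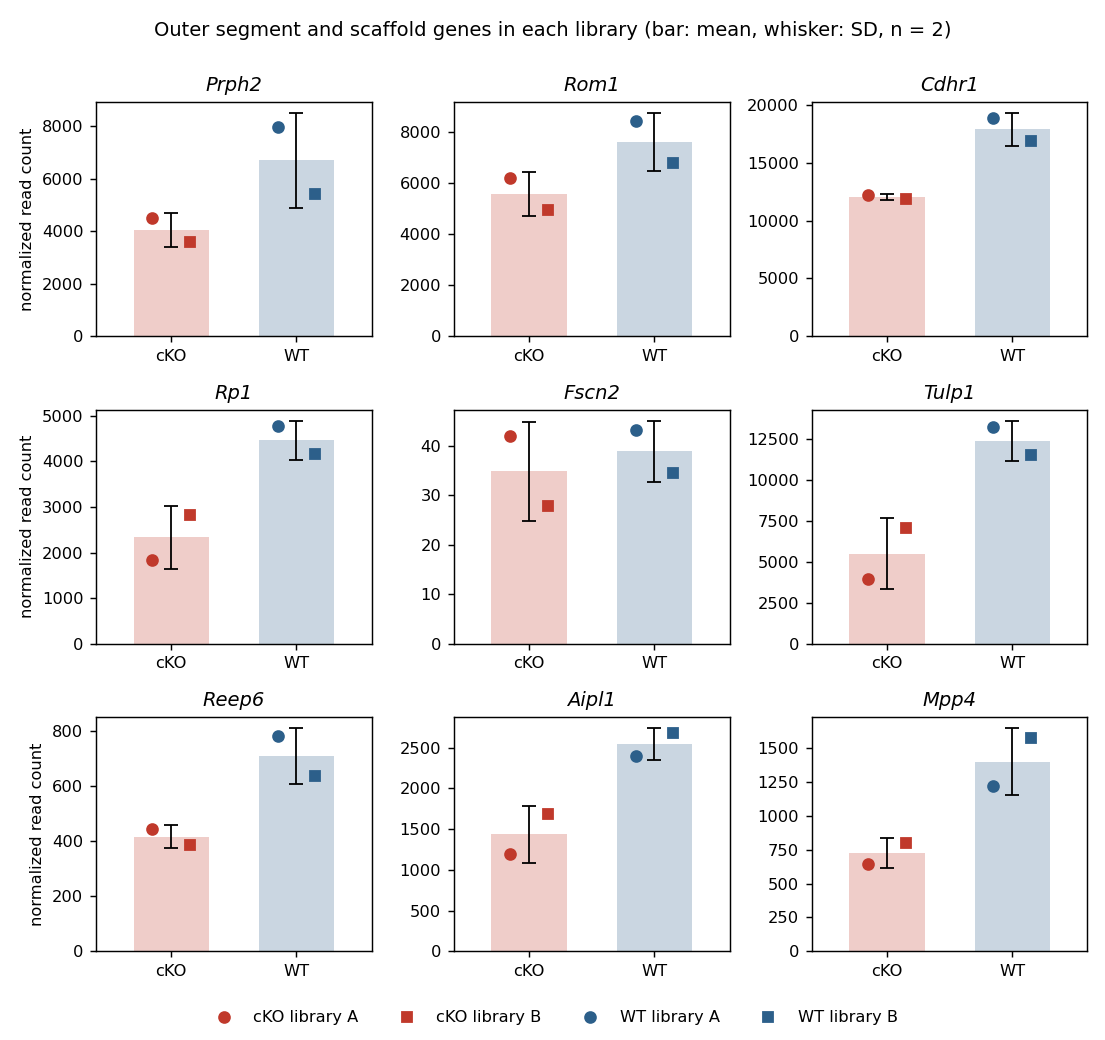
Normalized read count (y axes, linear from 0) of each of the 9 genes in the cKO libraries and the WT libraries. Points are libraries, bars are means and whiskers are SD (n = 2 each); the cKO points lie below the WT points in every panel but that of Fscn2.

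Prph2 and Rom1 encode the partner tetraspanins of the disc rim. Prph2 (ENSMUSG00000023978, chr17:46910459-46924933, plus strand), or peripherin-2, without which mouse rods form no outer segments, had 4487 and 3572 normalized counts in cKO libraries A and B, against 7977 and 5424 in WT libraries A and B. The means were 4030 ± 647 in cKO and 6700 ± 1805 in WT (SD, n = 2 each), a log2 fold change of −0.72 ± 0.25 (SE). Both cKO values lay below both WT values, and library A was above library B in each group. The WT spread was the widest of the 9 genes on the log2 scale, at 0.56 between libraries A and B. Rom1 (ENSMUSG00000071648, chr19:8927391-8929356, minus strand), which assembles with Prph2, had 6186 and 4944 in cKO libraries A and B, against 8409 and 6799 in WT libraries A and B. The groups did not overlap, but the highest cKO value was close to the lowest WT value, which was 9.92% above it. Its log2 fold change was −0.45 ± 0.21 (SE), the second smallest of the 9. Per kilobase of transcript there were 2.42 and 2.43 times as many Rom1 as Prph2 reads in cKO libraries A and B, against 1.85 and 2.20 in WT libraries A and B. The ratio was higher in both cKO libraries than in both WT ones. With 2 libraries per group a two-sided exact permutation test cannot go below p = 0.333, which this ratio gave (0.611 after adjustment over 11 ratios), so it does not pass.

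Cdhr1 (ENSMUSG00000021803, chr14:37077857-37098347, minus strand), a cadherin found where new discs form at the base of the outer segment, was the gene of the 9 with the most reads. It had 12204 and 11848 normalized counts in cKO libraries A and B, against 18903 and 16890 in WT libraries A and B. The cKO libraries agreed closely, at 12026 ± 252 (SD, n = 2), and lay well below the WT mean of 17897 ± 1423 (SD, n = 2). The log2 fold change was −0.57 ± 0.17 (SE), the smallest standard error of the 9. Rp1 (ENSMUSG00000025900, chr1:3999557-4409241, minus strand), a microtubule-binding protein of the axoneme that helps to stack the discs, had 1836 and 2827 in cKO libraries A and B, against 4770 and 4166 in WT libraries A and B. Its cKO mean was 52.2% of WT and its log2 fold change −0.97 ± 0.26 (SE). Library A was the lower one in cKO and the higher one in WT.

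Fscn2 (ENSMUSG00000025380, chr11:120361534-120368168, plus strand), the retinal fascin that bundles actin, was barely detected. It had 41.9 and 27.8 normalized counts in cKO libraries A and B, against 43.3 and 34.5 in WT libraries A and B, which stand for 15 and 42 reads in cKO and 57 and 50 reads in WT. The groups overlapped, since cKO library A was above WT library B. The exact 95% Poisson interval of cKO library A ran from 23.5 to 69.1 normalized counts, wider than the whole range of the 4 values. The log2 fold change was −0.17 ± 0.83 (SE), the largest standard error among these genes. What sets that error was not tested. Over the other 8 genes the interval's half-width was 1.24% to 15.9% of the value; these intervals cover counting error only.

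Tulp1 (ENSMUSG00000037446, chr17:28351515-28365222, minus strand), a tubby-like protein needed to carry rhodopsin into the outer segment, had the lowest cKO level relative to WT. It had 3948 and 7033 normalized counts in cKO libraries A and B, against 13246 and 11484 in WT libraries A and B. Every cKO value was far below every WT value, the lowest WT library being 63.3% above the highest cKO one. The means were 5490 ± 2181 in cKO and 12365 ± 1246 in WT (SD, n = 2 each), a log2 fold change of −1.23 ± 0.30 (SE). The cKO libraries themselves differed by 0.83 on the log2 scale, library A being lower, the widest gap between cKO libraries among the 9. Reep6 (ENSMUSG00000035504, chr10:80329953-80336441, plus strand), an endoplasmic reticulum protein of rods that serves the transport of outer segment membrane proteins, had 444 and 385 in cKO libraries A and B, against 779 and 637 in WT libraries A and B. Its log2 fold change was −0.77 ± 0.26 (SE), with no overlap.

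Aipl1 (ENSMUSG00000040554, chr11:72027963-72037509, minus strand) is a photoreceptor chaperone on which the assembly of phosphodiesterase 6, the effector enzyme of phototransduction, depends. It had 1190 and 1683 normalized counts in cKO libraries A and B, against 2403 and 2682 in WT libraries A and B. The groups did not overlap, and the log2 fold change was −0.84 ± 0.24 (SE). The subunits of that enzyme lay lower as well, and none was called by limma. All 5 were lower in cKO, as were 53.3% of genes tested, and 3 were lower without overlap, as were 22.3%. The rod catalytic subunit Pde6b had 1615 and 1493 in cKO libraries A and B, against 3989 and 2595 in WT libraries A and B, a log2 fold change of −1.05. The rod inhibitory subunit Pde6g had −0.34, or −0.58 when cKO library A was left out and −0.093 when cKO library B was. The cone subunits Pde6c and Pde6h had −1.18 and −1.37, and Pde6c had −0.25 without cKO library A. Pde6h had 55.9 and 502 in cKO libraries A and B, against 373 and 510 in WT libraries A and B, and its log2 fold change was 0.20 without cKO library A and −0.62 in edgeR. Pde6a, the other rod catalytic subunit, was at 0 in cKO library A and had 49.6 in cKO library B, against 163 and 89.0 in WT libraries A and B. A count of 0 there allows up to 8.38, the value of 3 reads. The median log2 fold change of the 5 was −1.18 with all libraries and −0.58 without cKO library A.

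Mpp4 (ENSMUSG00000079550, chr1:59120935-59163389, minus strand), a membrane-associated guanylate kinase that organizes proteins of the photoreceptor terminal, had 645 and 803 normalized counts in cKO libraries A and B, against 1223 and 1573 in WT libraries A and B. The groups did not overlap, and the log2 fold change was −0.95 ± 0.25 (SE). Here library B was above library A in both groups, and the ratio within tags was alike, at −0.92 for A and −0.97 for B. In GENCODE M21 the exons of Mpp4 share 510 bases with the antisense gene G730003C15Rik. The strand setting of the counting being not given in the sources used here, reads of Mpp4 and of that antisense gene cannot be told apart. The exons of the other 8 genes share no bases with another gene of that annotation.

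The promoters of the 9 genes were searched for letters that known photoreceptor regulators bind. RefSeq promoters on GRCm38.p6 were found for 7 of the 9 genes, 8 promoters in all since Mpp4 has 2 starts; Rp1 and Reep6 are only named. In the 250 bases before each start, both strands were searched for TAATC, the core bound by Crx and Otx2, and for TAATCC, which contains it. The search also took TGCTGA, part of the site of Nrl. It took the letters TAATTA, a general homeobox core. It took as well, as an E-box of basic helix-loop-helix factors, the letters CAGCTG. The core TAATC was found in 3 of the 8 (Prph2, Aipl1 and the downstream start of Mpp4) and in 19.8% of all 32851 promoters. TAATCC was found in 2 of the 8 (Aipl1 and Mpp4) and in 6.25% of all. TGCTGA was found in 2 of the 8 (Aipl1 and the upstream start of Mpp4) and in 16.1% of all. The homeobox core was in 0 of the 8 and 4.84% of all, and the E-box was in 1 of the 8, that of Aipl1, and 13% of all. Prph2 held TAATC on both strands, 30 and 61 bases before its start, counted to the first base of the match. A match is a description of the letters, not a bound site.

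The promoters that held TAATC are shown with that of Rom1, the partner of Prph2, which held none of the 5 letter groups; capitals mark TAATC or TGCTGA on either strand. They lie at chr17:46910228-46910458 (plus strand, Prph2, ending 19 bases before the RefSeq start, where its first GENCODE exon begins), chr19:8929357-8929606 (minus, Rom1), chr11:72037510-72037759 (minus, Aipl1) and chr1:59161637-59161886 (minus, Mpp4, downstream start).
Prph2: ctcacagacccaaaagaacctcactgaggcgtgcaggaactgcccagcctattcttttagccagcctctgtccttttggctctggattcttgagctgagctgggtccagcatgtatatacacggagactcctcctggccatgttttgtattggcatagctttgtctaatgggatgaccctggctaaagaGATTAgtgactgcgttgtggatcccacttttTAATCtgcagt
Rom1: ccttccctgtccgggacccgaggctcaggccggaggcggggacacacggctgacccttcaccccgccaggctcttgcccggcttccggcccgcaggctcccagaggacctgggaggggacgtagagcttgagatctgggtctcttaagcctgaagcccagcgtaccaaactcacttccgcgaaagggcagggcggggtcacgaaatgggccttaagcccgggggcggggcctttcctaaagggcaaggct
Aipl1: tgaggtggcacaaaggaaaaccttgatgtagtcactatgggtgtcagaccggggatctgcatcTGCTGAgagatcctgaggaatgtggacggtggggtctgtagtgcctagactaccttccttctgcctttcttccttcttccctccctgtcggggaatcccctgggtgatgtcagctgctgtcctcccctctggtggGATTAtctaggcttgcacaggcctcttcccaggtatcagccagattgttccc
Mpp4: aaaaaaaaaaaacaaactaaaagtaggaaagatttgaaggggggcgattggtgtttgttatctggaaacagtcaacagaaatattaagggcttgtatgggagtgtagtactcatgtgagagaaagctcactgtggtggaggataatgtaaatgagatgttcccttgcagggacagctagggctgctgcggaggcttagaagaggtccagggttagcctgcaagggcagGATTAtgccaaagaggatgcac
The Rom1 window also lies in the gene Eml3 and the Mpp4 window in Gm29017. The TAATC match began 52 bases before the start in Aipl1 and 22 in Mpp4, against 30 and 61 in Prph2. The Rom1 promoter, at 66.8% G and C, is the richest in these bases of the 8.

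What a tag marks is not known, so ratios within tags are given as a description. All 9 were lower in cKO with either tag, while 36.6% of genes tested were lower with both. Their median log2 ratio was −0.83 for tag A, where that of all genes was −0.05, and −0.60 for tag B, where that of all genes was −0.00. Rom1 had −0.44 with tag A and −0.46 with tag B, and Reep6 had −0.81 with A and −0.72 with B. Tulp1 had −1.75 with A and −0.71 with B, and Rp1 had −1.38 with A and −0.56 with B. The tag A ratios of Tulp1 and Rp1 were thus far below their tag B ratios, while Fscn2 had −0.05 with A and −0.30 with B. Within groups, 5 genes (Prph2, Rom1, Cdhr1, Reep6 and Fscn2) were higher in library A than B in both cKO and WT, and Aipl1 and Mpp4 were lower in A in both. Tulp1 and Rp1 were lower in library A in cKO and higher in it in WT.

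**Figure D2:**
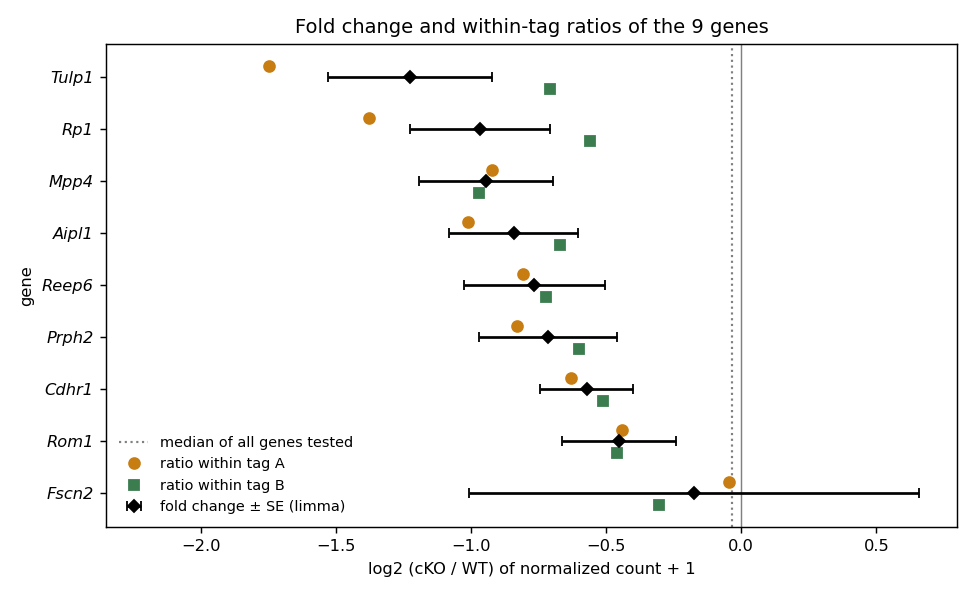
Log2 ratio of cKO to WT (x axis, on normalized count + 1) for each gene (y axis): diamonds are limma fold changes with their standard error, circles the ratio at tag A, squares the ratio at tag B. Tulp1 and Rp1 have the widest gap between tags, −1.75 against −0.71 and −1.38 against −0.56, while Rom1 and Mpp4 have almost none.

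Leaving out a library changed the calls. Without cKO library A, Prph2 (log2 fold change −0.88, adjusted p = 0.01) and Tulp1 (−0.81, adjusted p = 0.0189) were called lower by limma, where 0.502% of genes were and 0.522% were called in either direction. Without cKO library B, 6 genes were called lower by limma, Prph2, Rp1, Mpp4, Aipl1, Tulp1 and Cdhr1, where 26.4% of genes were and 39.2% were called in either direction, and Reep6 had an adjusted p = 0.0501. In such fits the lone library is assumed to vary like the pair of the other group. Fscn2 was higher in cKO, at a log2 fold change of 0.11, without cKO library B, and the other 8 were lower there. Without either WT library none of the 9 was called by limma (adjusted p = 1), and without WT library A the log2 fold change was −0.44 for Prph2 and −0.30 for Rom1. Rom1 had −0.29 without cKO library B. In the authors' deposited table none of the 9 had an adjusted p under 0.05, as 0.292% of genes did; the lowest there was 0.105 for Tulp1, followed by 0.202 for Prph2.

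Levels of the 9 genes were compared per kilobase of their principal transcript in GENCODE M21. Rom1, Tulp1, Cdhr1 and Prph2 formed a top group, with 1340 to 4078 normalized counts per kilobase in cKO and 2035 to 6335 in WT. Tulp1 had 1888 and 3363 per kilobase in cKO libraries A and B, against 6335 and 5492 in WT libraries A and B. Rom1 had 4078 and 3259 per kilobase in cKO libraries A and B, against 5543 and 4482 in WT libraries A and B. Rom1 and Tulp1 overlapped in each group, so their order is not set. Cdhr1 was above Prph2 in all 4 libraries. Aipl1 and Rp1 came next and overlapped in each group. Mpp4 was above Reep6 in all 4 libraries, and Fscn2 was last, at 16.2 to 24.5 per kilobase in cKO and 20.1 to 25.3 in WT. Per kilobase of all annotated exons, whose summed length is much greater for Tulp1, Rp1 and Mpp4 than their principal transcript, Tulp1 ranked behind Cdhr1 and Prph2, and Reep6 came before Mpp4. On that scale the means over the 4 libraries were 630 for Aipl1 and 276 for Rp1, so the order of neighbours depends on the length used.

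Other genes of the outer segment were lower as well, and genes of the cilium and of the wider scaffold families less so by their medians; none of these genes was called by limma. Of 22 rows tested for other outer segment and photoreceptor membrane genes (21 genes, Cngb1 having 2 identifiers), 19 were lower and 3 higher in cKO. Their median log2 fold change was −0.57, or −0.88 without WT library B, and 12 were lower without overlap. Over all genes tested 53.3% were lower and 22.3% were lower without overlap, shares that stand beside each list here. The 3 with the highest mean were Unc119, a lipid-binding transport protein, at −0.45, Prom1, a disc membrane protein, at −0.58, and Impg2, a proteoglycan of the matrix around photoreceptors, at −0.53. Of 25 connecting cilium and ciliary transport genes 18 were lower, with a median of −0.22, and −0.10 without cKO library A. Rpgrip1, a scaffold of the connecting cilium, had 1604 and 14724 normalized counts in cKO libraries A and B, against 30225 and 22735 in WT libraries A and B. Its log2 ratio came to −4.24 with tag A and −0.63 with tag B, and its log2 fold change to −2.43, or −0.83 without cKO library A. Kif3a, a motor subunit of all cilia, had a log2 fold change of −0.09, and Arl3, a small GTPase of ciliary cargo release, had 0.34, or 0.19 without WT library A. Of 16 Crumbs and guanylate kinase scaffold genes 11 were lower, with a median of −0.12, or −0.00 when cKO library A was left out and −0.30 when cKO library B was, Cdh2 having 0.23, Lin7c 0.18 and Magi1 −0.39. Of 15 ribbon synapse genes 13 were lower, with a median of −0.28, or −0.43 without WT library B. There Syp, a synaptic vesicle protein, had −0.45, Ctbp2, whose locus also encodes the ribbon protein, 0.01, and Stx3, a membrane fusion protein, −1.02. Without cKO library A the values were −0.016 for Kif3a, 0.0033 for Cdh2, 0.11 for Lin7c, −0.063 for Magi1 and −0.56 for Stx3.

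The paralogs of the 9 genes had no common direction. Of 22 paralogs tested 11 were higher and 11 lower in cKO. The median of their log2 fold changes was 0.01, −0.07 without cKO library A, and −0.12 with no filter on low values. Fscn1, the fascin of many cell types, had 34328 and 22332 normalized counts in cKO libraries A and B, against 25726 and 20803 in WT libraries A and B, and a log2 fold change of 0.26, or −0.051 without cKO library A. Reep5, relative of Reep6, had a log2 fold change of 0.31. Mpp3, relative of Mpp4, had −0.61, with a ratio of −1.28 for tag A and 0.057 for tag B. Of the tubby family, Tulp4, the relative with the second highest mean, had −0.045 (0.040 without WT library A), Tulp3 had −0.50 and Tub −0.86. Rp1l1, a photoreceptor relative of Rp1, had −0.47, or −0.16 without WT library A. Without cKO library A the values were −0.21 for Tulp3, −0.50 for Tub and 0.14 for Reep5. None of these passed in limma, and no difference between a gene and its relative was tested.

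**Figure D3:**
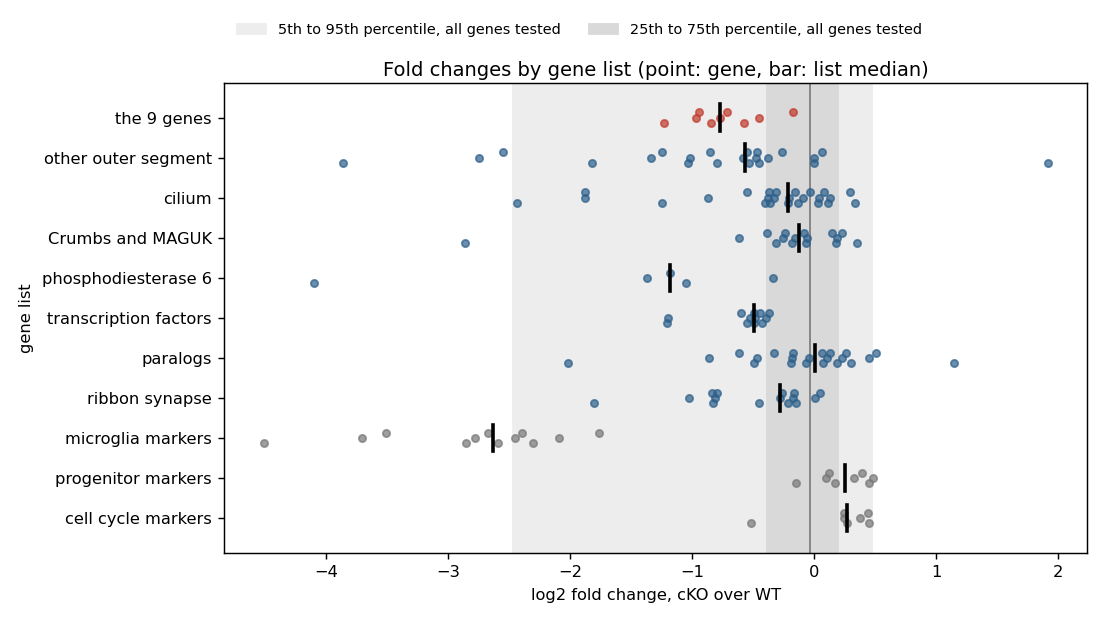
Log2 fold change, cKO over WT (x axis), of each tested gene (points) by gene list (y axis), with list medians as black bars and shaded bands for the percentiles of all genes tested. The 9 genes have a median of −0.77, beside −0.03 over all genes and 0.01 for their paralogs; in the lists drawn here other than the microglial markers, the points below −2 are Rpgrip1 and genes at 0 in cKO library A, whose fold change depends on the pseudocount.

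All 12 photoreceptor transcription factors tested had a lower mean in cKO, 11 of them without overlap and none called by limma. The factor Nr2e3 was called lower by DESeq2 (log2 fold change −1.18, adjusted p = 0.0452), where 0.00572% of genes were. Over all genes tested 53.3% were lower and 22.3% were lower without overlap. The median log2 fold change of the 12 factors was −0.49. Otx2, which specifies photoreceptors, had −0.40, Rorb, a nuclear receptor upstream of Nrl, had −0.49, and Crx, the main activator of photoreceptor genes, had −0.60. Without cKO library A, Otx2 had −0.23 and Rorb 0.071. Crx had 21919 and 27947 normalized counts in cKO libraries A and B, against 38112 and 36992 in WT libraries A and B. Each of the 9 genes was therefore also set against Crx in the same library. For 4 of them (Rp1, Mpp4, Aipl1 and Tulp1) the ratio to Crx was lower in both cKO libraries than in both WT libraries, as it was for 3.65% of genes tested. Tulp1 per Crx was 0.180 and 0.252 in cKO libraries A and B, against 0.348 and 0.310 in WT libraries A and B. For the other 5 the groups overlapped: Cdhr1 per Crx was 0.557 and 0.424 in cKO libraries A and B, against 0.496 and 0.457 in WT libraries A and B. The exact permutation test gave p = 0.333 for each ratio without overlap, the smallest it can give, and 0.611 after adjustment over the 11 ratios.

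**Figure D4:**
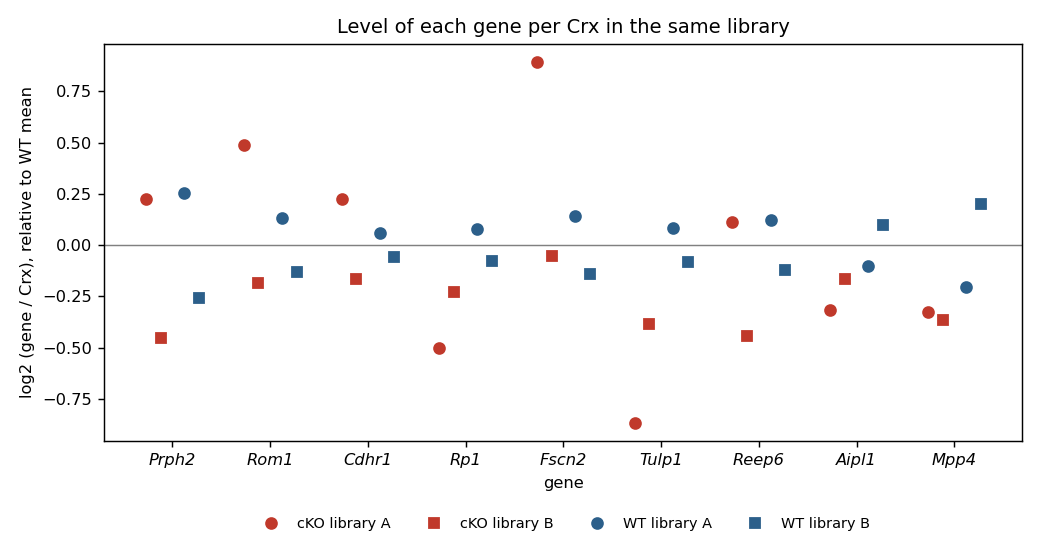
Log2 of each gene's normalized count over that of Crx in the same library (y axis), relative to the mean of the 2 WT libraries on that scale, for the 9 genes (x axis). In cKO, Tulp1, Rp1, Aipl1 and Mpp4 lie below both WT libraries, while for Prph2, Rom1, Cdhr1, Fscn2 and Reep6 the cKO libraries lie on either side of a WT library.

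The genes whose profile over the 4 libraries was most like the mean of the 9 were found by the Euclidean distance of centred log2 values, among 11746 named genes with a mean of at least 100. They were Grhl3 (distance 0.058), Ppp2r2b (0.090), Kcnb2 (0.12), Gcnt1 (0.13) and Pvr (0.14). Grhl3, a grainyhead family transcription factor, had 126 and 134 normalized counts in cKO libraries A and B, against 221 and 197 in WT libraries A and B. Ppp2r2b, a regulatory subunit of protein phosphatase 2A, had 539 and 590 in cKO libraries A and B, against 1074 and 922 in WT libraries A and B. Among the 9 themselves Cdhr1 (0.19) and Reep6 (0.23) lay nearest to their mean profile and Tulp1 (0.72) and Fscn2 (0.74) farthest. Over only 4 libraries many profiles are alike: 218 of the candidates lay nearer than the third-nearest of the 9.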

How the data were processed

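Per the submitters' processing notes, FastQC, TopHat, HTSeq and DESeq were used with the mouse build mm10; their versions, settings and annotation remain not given in the sources used here. The values deposited by the authors are normalized counts by the name of their table, and from the values a signal made by dividing the reads of a gene by 1 size factor per library. Multiplied back, 100% of them came out whole within 0.01, 1 read being worth 0.661 to 2.79. Because both cKO columns are headed replicate 2, they were assigned to the group only. The deposited p-values and adjusted p-values are the authors' own.

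The 14480 genes whose mean normalized count reached 10 were tested with limma 3.58.1 (R 4.3.3) on log2(normalized count + 1), with a mean-dependent prior, a two-sided test and adjusted p-values (Benjamini-Hochberg) called under 0.05. The pseudocount shrinks the ratios of low genes, while a library at or near 0 can widen a group's fold change: Pde6a was −4.10 in limma, −2.21 in edgeR and −2.28 in DESeq2. edgeR 4.0.16 and DESeq2 1.42.0 on the recovered reads were alternatives. Lengths, coordinates and overlaps come from GENCODE M21 on GRCm38 (21798 of 22690 identifiers found) and promoters from RefSeq. A chi-square of the reads gave 113 per degree of freedom between the cKO libraries and 67.0 between the WT libraries, so neither pair is a repeated deposit of 1 library.

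The 9 genes and the lists were chosen with earlier results of these data known. Named genes are the 9, Casz1 and the 3 members of each list with the highest mean (limma called no gene in any list). The phosphodiesterase 6 subunits, relatives of the 9 and the 5 genes most like them are named too. So are Nr2e3 and Cldn1, called by DESeq2. No gene set test was run. For some genes that overlap or are related to the 9, results are not reported here.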

Additional observations from a re-analysis of the deposited data

How the results depend on the processing

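The count of 0 genes called by limma stayed at 0 with pseudocounts of 0.5 and 5, no filter, a mean of at least 50, median rescaling, no mean-dependent prior and edgeR (208 genes at an unadjusted p under 0.05, against 274 in limma). It became 2 with DESeq2, Nr2e3 lower and Cldn1 higher, named because they are few, and 0 to 5662 over left-out libraries. The median log2 fold change of the 9 genes ranged from −0.76 to −0.62 over left-out libraries; the cause was not tested. Over left-out libraries Fscn2 ranged from −0.46 to 0.11, Pde6h from −2.94 to 0.20, Rorb from −1.05 to 0.071, Mpp3 from −1.22 to 0.0017, Fscn1 from −0.051 to 0.57, Tulp4 from −0.13 to 0.040 and Ctbp2 from −0.17 to 0.18, each changing sign, which the lists' medians for the 9 genes and the phosphodiesterase 6 subunits did not. Ctbp2 was −0.07 without WT library B and −0.17 without cKO library A. With a mean of at least 50, Fscn2 was not tested. The sources used here do not say what a tag marks; the deviations of libraries with the same tag from their group means correlated at 0.258 over genes, and with 2 pairs this does not settle whether they are paired. A replicate block on the tag gave 0 genes in limma (1375 before adjustment) and a median of −0.77 for the 9. Among the 9, counting error was widest for Fscn2, with half-widths of 26.9% to 54.5% of the value, against 1.24% to 15.9% for the others. What sets the limit for each gene was not tested.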
